A study of Caenorhabditis elegans with 609 samples.

Results

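The 7 genes described here are effectors of the PMK-1 immune pathway of the intestine of Caenorhabditis elegans. They were chosen by their sequence names, T24B8.5 (sysm-1), K08D8.5, C17H12.8, F49F1.6 (mul-1), F08G5.6 (irg-4), F35E12.5 (irg-5) and C32H11.12 (dod-24). They are 7 of 16260 genes tested and are held by 12 of the 65330 rows of the expression tables. Libraries of polyadenylated RNA were made from whole animals, young adult hermaphrodites of wild strains grown on plates with Escherichia coli OP50 and harvested when the first embryo was seen. The labels name no pathogen and no treatment, so the values are levels in animals kept on their ordinary food. Each strain is an isolate with its own genotype, N2 is the laboratory reference strain and CB4856 is a strain from Hawaii, and each of 2 or 3 independently grown cultures per strain is 1 sample.

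PMK-1 is a p38 mitogen-activated protein kinase. In the intestine it acts at the end of a cascade in which the adaptor TIR-1 engages the kinases NSY-1 and SEK-1, and phosphorylated PMK-1 acts on the transcription factor ATF-7 to raise the transcription of secreted defence genes. The effectors are used as readouts of the pathway in N2 because their basal level falls when a kinase of the cascade is lost and several of them rise on infection. The family does not share 1 protein type. The gene sysm-1 encodes a small secreted peptide with a ShK-like toxin domain, and mul-1 encodes a mucin-like protein. Secreted proteins with CUB-like domains are encoded by irg-4, irg-5 and dod-24. K08D8.5 and C17H12.8 are named here as targets of the pathway, and their protein type was not examined.

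Of the 7 genes, 5 lie on chromosome IV, with positions here on the WBcel235 assembly. K08D8.5 (12910647 to 12912129, minus strand) and dod-24 (12940106 to 12941354, minus strand) lie in 1 neighbourhood of that chromosome. The other genes of chromosome IV are irg-4 (12435833 to 12438236, plus strand), C17H12.8 (6818703 to 6820575, plus strand) and mul-1 (4121342 to 4123166, minus strand). On chromosome II lies sysm-1 (9082626 to 9083193, minus strand), and on chromosome V lies irg-5 (13737010 to 13738474, minus strand). All are annotated as protein-coding.

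The study's rule on distances between cultures, applied anew here, kept 559 cultures, 3 each of 145 strains and 2 each of 62 strains, and removed 49. The estimated counts of a culture summed to 28772489 in the median, at least 15461168 and at most 280262722. The label of each culture names a sequencing pool with its year, and of the kept cultures 174 belong to pools of the later year and 385 to pools of the earlier year. The level of a gene is given in TPM, a measure per transcript length and library, divided by a factor of the culture. Tests were made on log2(normalized TPM + 0.5), a scale that understates changes of low genes and on which a TPM of 0 is -1. The values come from whole animals, so fewer intestinal cells and less RNA per cell cannot be told apart, and the 8 markers of the intestine tested here were all detected.

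In the middle of their distribution over strains the effectors stood at modest levels. The medians of the strain means, in normalized TPM, were 25.5 for dod-24, 12.3 for C17H12.8, 6.06 for K08D8.5, 5.54 for irg-4, 3.65 for sysm-1, 1.63 for irg-5 and 0.503 for mul-1. In 22 strains all 7 genes stood in this order. Of the 21 pairs of genes, 16 were in the reverse order in at least 1 strain, most often K08D8.5 and irg-4, which were reversed in 101 strains, and 5 pairs kept their order in every strain. The level of mul-1 stayed low throughout, with 1.64 TPM in the highest strain, a median of 9 counts per culture and 14 of 559 cultures at 0. By contrast, irg-5, the next lowest gene in the median, reached 404.6 TPM in 1 strain.

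**Figure D1:**
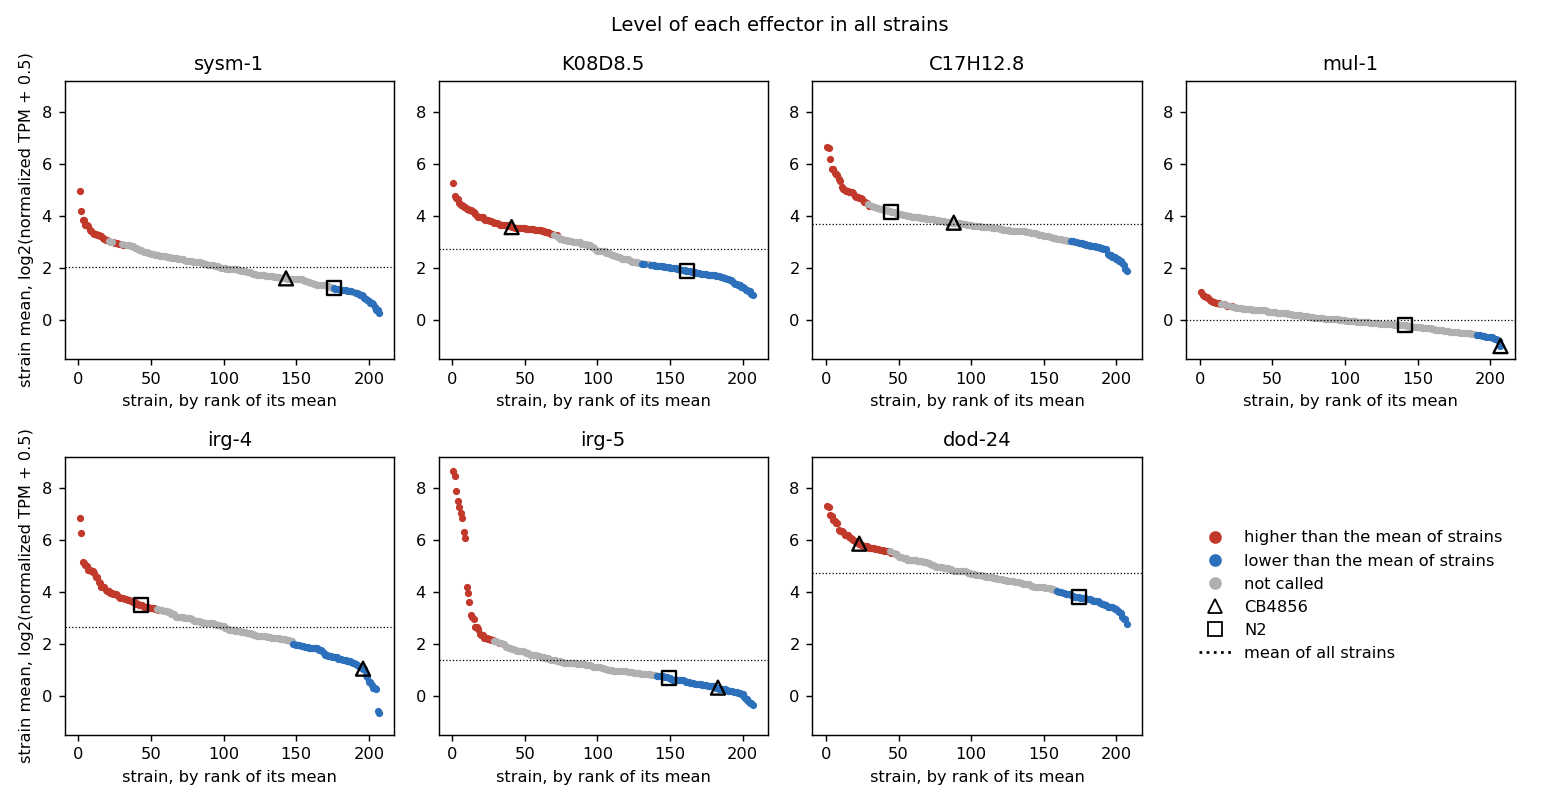
Mean of each strain (vertical axis, log2(normalized TPM + 0.5)) against its rank for each effector, with colours for strains called higher or lower than the mean of all strains, a triangle for CB4856 and a square for N2. The 9 leading strains of irg-5 stand above a gap of 1.89, and all strains of mul-1 lie between -1 and 1.09.

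The levels of all 7 effectors differed among the strains (edgeR quasi-likelihood F-test on estimated counts, Benjamini-Hochberg adjusted over 16260 genes). This held for 99.4% of all genes tested, so the call itself says little about the effectors. The sizes of the differences are more informative. The standard deviation (SD) among strain means, on the log2 scale, was 1.48 for irg-5, 1.14 for irg-4, 0.93 for K08D8.5, 0.91 for dod-24, 0.81 for C17H12.8, 0.78 for sysm-1 and 0.41 for mul-1, beside a median of 0.37 over all genes tested. The residual SD among cultures of 1 strain lay between 0.36 for K08D8.5 and 0.56 for sysm-1, beside 0.27 for the median gene. The spread among strains therefore exceeded that among cultures by the widest margin in irg-5, and in mul-1 the 2 were alike in size.

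Broad-sense heritability (H2), the share of variance that lies among strains, put the genes in the same order. H2 was 0.92 for irg-5 (95% interval 0.90 to 0.94), 0.88 for irg-4 (0.85 to 0.90) and 0.86 for K08D8.5 (0.83 to 0.89). These 3 genes were above the value of 95% of all genes tested, at percentiles 98.2, 96.5 and 95.9. H2 was 0.77 for dod-24, 0.73 for C17H12.8 and 0.61 for sysm-1, with 0.46 for mul-1, the only effector below the median gene (0.56). With the scores of sperm, yolk, oocyte and embryo markers regressed out, H2 was 0.91 for irg-5, 0.88 for irg-4, 0.83 for K08D8.5, 0.77 for dod-24, 0.63 for C17H12.8, 0.55 for sysm-1 and 0.36 for mul-1, while the median of all genes was 0.38. Within the cultures of the earlier year alone, H2 was 0.92 for irg-5, 0.85 for irg-4, 0.86 for K08D8.5, 0.73 for dod-24, 0.71 for C17H12.8, 0.61 for sysm-1 and 0.45 for mul-1.

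**Figure D2:**
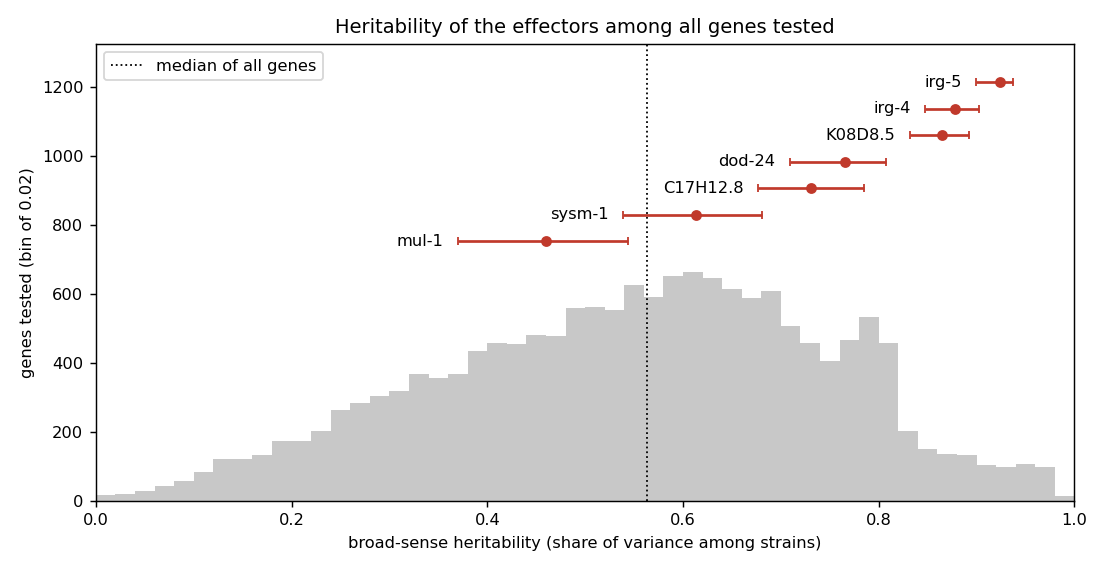
Histogram of H2 over the 16260 genes tested (bins of 0.02, dotted line at the median) with the 7 effectors as points and their 95% intervals as bars. The points of 6 effectors lie to the right of the median of 0.56, and that of mul-1 lies at 0.46.

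Each strain was then set against the mean of all strains (limma, adjusted over all 3365820 pairs of a gene and a strain). For the effectors, 278 of 1449 such pairs were higher and 319 were lower, or 19.2% and 22%, against 12.7% higher and 11.6% lower over all genes tested. K08D8.5 had the most calls, with 71 strains higher and 73 lower, followed by irg-4 with 55 higher and 58 lower. For dod-24 the numbers were 46 and 46, and for C17H12.8 they were 30 higher and 37 lower. In irg-5 the split was unequal, with 29 strains higher and 66 lower. The mean of all strains for irg-5 was 1.39 on the log2 scale, while the strain of rank 104, NIC267, stood at 1.07. The reference thus lay above the middle strain, and the counts are not a split around the median. For sysm-1, 29 strains were higher and 26 lower, and for mul-1 18 were higher and 13 lower. Neighbours in the order of strain means mostly could not be told apart: for 5 effectors all 206 neighbouring pairs differed by less than 2 standard errors of a difference, and the exceptions were 1 pair for irg-5 and 2 pairs for irg-4. The error was that for strains of 3 cultures, and it is larger where a strain has 2. With so many strains in 1 order, neighbours stand close in any case. This says nothing about strains that lie further apart.

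The widest range belonged to irg-5, whose product has a CUB-like domain and whose name stands for infection response gene. The 3 cultures of NIC258 held 466.5, 390.6 and 356.8 TPM, the 2 of NIC260 held 359.8 and 341.2 TPM, and the 2 of JU782 held 261.2 and 209.6 TPM. Below them came NIC256 with a mean of 189.6 TPM, JU2526 with 155.4, NIC271 with 130.5, NIC261 with 128.7, NIC265 with 79.7 and JU775 with 67.4. Every culture of these 9 strains, the lowest at 59.0 TPM, was above every culture of the strain next in order, JU2519, which held 22.9 and 13.6 TPM. The gap between the means of JU775 and JU2519 was 1.89 on the log2 scale, beside a standard error of 0.34 for a difference between 2 strains of 3 cultures. JU2519 had 2 cultures, so the error for this pair is larger than that. In NIC258 the level was 7.26 ± 0.24 (SE) above the mean of all strains (limma adjusted p = 3.1e-96).

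At the other end, irg-5 was at 0.278 and 0.272 TPM in ECA703. The 3 cultures of QX1212 held 0.506, 0.480 and 0.0762 TPM, and those of CX11314 held 0.568, 0.299 and 0.174 TPM. Each of these 3 strains was called lower than the mean of all strains, with differences of -1.76, -1.66 and -1.66 on the log2 scale. In all, 7 strains had a mean under 0.5 TPM and 12 had a mean of 10 TPM or more. The strains with the high levels thus form a short, steep upper end, and most strains lay near the median of 1.63 TPM.

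**Figure D3:**
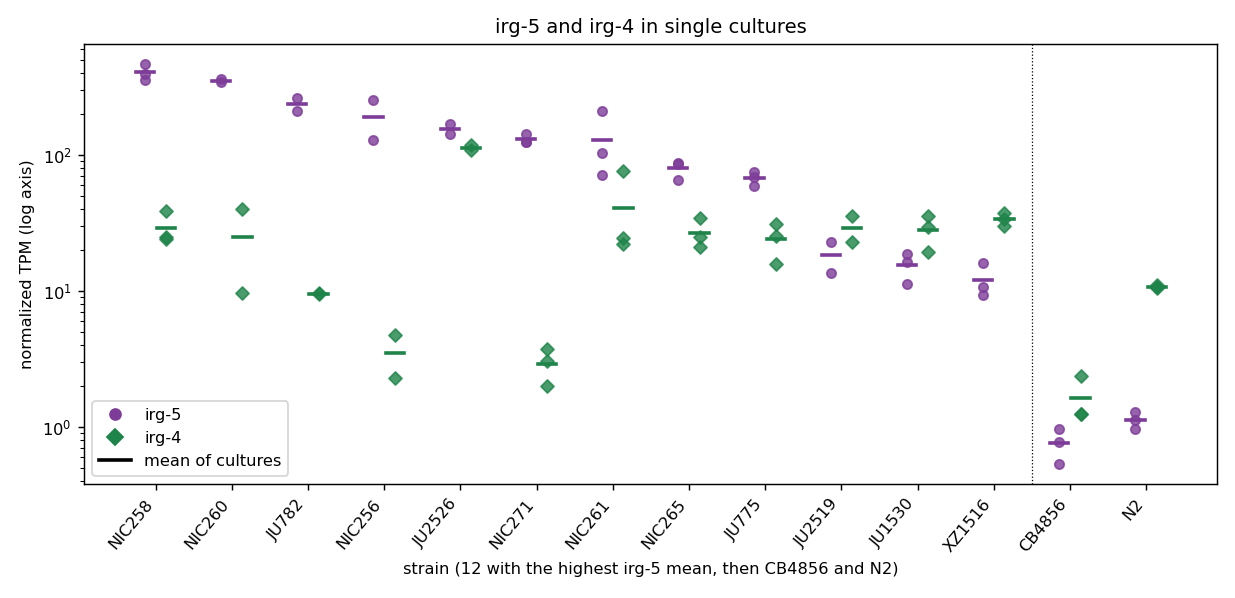
Normalized TPM (log axis) of irg-5 (circles) and irg-4 (diamonds) in each culture of the 12 strains with the highest irg-5 mean and of CB4856 and N2, with bars for the means. In JU2526 both genes stand above 100 TPM (155.4 and 113.2), while in NIC271 irg-5 stands at 130.5 TPM and irg-4 near 3.

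The other infection response gene with a CUB-like domain, irg-4, shared part of its upper end with irg-5. JU2526 held 118.3 and 108.0 TPM, and ECA777 held 84.4, 82.6 and 64.8 TPM. The next strain, NIC261, held 75.6, 24.5 and 22.2 TPM, so that its highest culture overlapped those of ECA777 although the means were 1.14 apart on the log2 scale. The difference from the mean of all strains was 4.18 ± 0.29 (SE) for JU2526 and 3.63 ± 0.24 for ECA777 (limma adjusted p = 2.4e-34 and 9.5e-38). QX1791 held 0.163 and 0.0960 TPM, QX1792 held 0.324, 0.204 and 0 TPM, and both lay 0.87 or more on the log2 scale below the strain above them, MY772 (0.791 and 0.631 TPM). Of the 9 strains that led irg-5, 6 were called higher in irg-4 too and ranked between 1 and 15 there (JU2526, NIC261, NIC258, NIC265, JU775 and NIC260). JU782 and NIC256 had no call in irg-4, and NIC271 was lower, with 3.73, 3.04 and 1.98 TPM. The estimated counts of irg-4 were divided between 2 transcripts, and H2 of the single transcripts was 0.51 and 0.45, against 0.88 for their sum.

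Of the genes named above for a CUB-like domain, dod-24 was the most abundant. It is named for its response downstream of DAF-16, a transcription factor of insulin signalling. JU2519 held 195.1 and 127.3 TPM, QG2075 held 219.5 and 106.1 TPM, and NIC251 held 139.0, 122.6 and 108.3 TPM. These 3 strains were 2.57 ± 0.33, 2.52 ± 0.33 and 2.21 ± 0.27 (SE) above the mean of all strains on the log2 scale, and their cultures overlapped one another. The lowest strain, QX1233, held 6.24 and 6.21 TPM, JU2619 held 10.3, 6.93 and 5.18 TPM, and MY18 held 13.5, 5.71 and 5.03 TPM. In 199 strains the mean was at least 10 TPM.

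Among the remaining targets, K08D8.5 had the most strains called in either direction. NIC513 led with 46.0, 39.4 and 29.7 TPM, ECA745 held 27.6 and 26.6 TPM, and JU2576 held 28.2, 25.6 and 23.6 TPM. The cultures of NIC513 did not overlap those of ECA745, and the 2.53 ± 0.21 (SE) by which its mean exceeded that of all strains had an adjusted p of 6.2e-27 in limma. QX1212 held 2.0, 1.21 and 1.18 TPM, JU642 held 2.32, 1.57 and 0.866 TPM, and JU2879 held 1.68 and 1.61 TPM. The largest gap between neighbouring strains was 0.47, and the 144 strains called for K08D8.5 were more than those of 98% of all genes tested.

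For C17H12.8, NIC513 was again the leading strain, with 142.6, 107.5 and 68.3 TPM. CX11254 held 138.1, 96.3 and 73.1 TPM, and ECA812 held 129.2, 80.0 and 36.7 TPM, so the cultures of these strains overlapped. They were 2.97, 2.94 and 2.49 above the mean of all strains, each with an SE of 0.27 on the log2 scale. JU1246 (3.82, 3.70 and 2.36 TPM), QX1212 (5.81, 3.14 and 2.16 TPM) and JU778 (5.16, 3.56 and 3.16 TPM) were the lowest strains. QX1212 was also among the lowest 4 strains of K08D8.5, irg-5 and dod-24.

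The peptide gene sysm-1, whose promoter is widely used in reporters of PMK-1 activity, was highest in CX11254 with 35.5, 28.7 and 27.7 TPM. NIC513 held 31.6, 16.9 and 10.9 TPM and ECA777 held 16.0, 15.3 and 11.07 TPM. CX11254 stood 0.74 on the log2 scale above NIC513, a gap below 2 standard errors of a difference between strains, where 1 such error was 0.46. The lowest strains were MY16 (1.77, 0.393 and 0.385 TPM), ECA710 (1.71, 1.11 and 0.130 TPM) and MY518 (1.13, 0.847 and 0.562 TPM). The median of 25 counts per culture for sysm-1 was the lowest apart from that of mul-1. Its residual SD, which also holds variation between cultures, was the largest of the 7 genes.

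The mucin-like gene mul-1 was highest in ECA703 (1.74 and 1.53 TPM), JU2566 (1.69 and 1.20 TPM) and QG556 (1.58, 1.35 and 1.27 TPM). ECA703 was also the strain with the lowest irg-5. All 3 cultures of CB4856 were listed at 0 for mul-1, and it was the only strain without a count. MY23 held 0.171, 0.0685 and 0 TPM and DL238 held 0.169, 0.0952 and 0 TPM. So low a gene is counted from few reads, and 103 strains had a mean under 0.5 TPM. Of its 2 transcripts, F49F1.6b.1 held 45.3% of the TPM of the gene and was at 0 in 146 cultures. That transcript did not pass the filter on low counts by itself. Its H2 was 0.06, against 0.38 for F49F1.6a.1 and 0.46 for their sum.

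Taking the calls by strain, 5 strains were higher than the mean of all strains in 6 of the 7 effectors and lower in none. These were JU2519, ECA777, ECA745, ECA363 and JU2570. All of them were higher in sysm-1, K08D8.5, C17H12.8 and irg-4. The share of all genes tested that was called higher was 16.6% in JU2519, 17.4% in ECA777, 11.2% in ECA745, 38.5% in ECA363 and 35.6% in JU2570, so the last pair departed from the mean in many genes. The strains CX11314, MY518, NIC511 and NIC515 were lower in 6 effectors and higher in none. In these strains 35.3%, 32.9%, 15.8% and 37.6% of all genes were called lower. No strain was called in 1 direction in all 7. Higher calls in some effectors went with lower calls in others in 65 strains, and 13 strains had no call in either direction. MY772, for example, was higher in K08D8.5 and lower in sysm-1, C17H12.8, irg-4, irg-5 and dod-24.

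The strain means of the effectors were compared with each other over all strains. These correlations are descriptions, without a p, since strains share ancestry and the genes of a culture share its library and its developmental stage. All 21 pairs had a Pearson's r above 0, with a median of 0.31, beside a median of 0.13 between an effector and any other gene tested. At the lower quartile of all genes, r lay between -0.15 for irg-4 and -0.06 for sysm-1. The median r with the effectors was 0.28 for a list of 15 other intestinal effectors, 0.28 for 4 epidermal markers and 0.26 for 4 neuronal markers. It was -0.34 for 7 oocyte markers, -0.16 for 6 yolk markers and -0.07 for 5 embryo markers. Among the 21 pairs the highest values were 0.56 between K08D8.5 and dod-24, 0.55 between sysm-1 and C17H12.8 and 0.50 between C17H12.8 and dod-24. Spearman's rho for these pairs was 0.56, 0.48 and 0.53, and with the 2 most extreme strains of the first gene left out r was 0.54, 0.49 and 0.50. Between irg-4 and irg-5 r was 0.47 (rho 0.50). The lowest values were 0.02 for K08D8.5 with irg-4 and 0.02 for mul-1 with irg-5, with 0.04 for K08D8.5 with mul-1. A rank reading raised the low values of irg-5, whose r with sysm-1 was 0.10 and rho 0.24.

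Seen from the whole table, the pairings were uneven and depended on which gene of a pair was taken as the start. Only 4 genes tested had a higher r with K08D8.5 than dod-24 did, and 2 had a higher r with dod-24 than K08D8.5 did. For sysm-1 only 1 gene had a higher r than C17H12.8 did, while 532 had a higher r with C17H12.8 than sysm-1 did. For irg-5 15 genes had a higher r than irg-4 did, while 2574 had a higher r with irg-4 than irg-5 did. Within the cultures of the later year alone the median over the 21 pairs was 0.23, with 20 pairs above 0, and within those of the earlier year it was 0.32. With the 4 stage scores regressed out the median was 0.22 and 19 pairs were above 0.

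Cultures of the same strain also varied together, but in a narrower group. Over the deviations of 559 cultures from their strain means, r was 0.74 between K08D8.5 and C17H12.8, 0.73 between C17H12.8 and dod-24 and 0.66 between K08D8.5 and dod-24. The next pair was irg-4 with irg-5 at 0.48. This was below the 0.50 that marked the upper 5% of all genes for irg-4 and above the 0.41 that marked it for irg-5. For sysm-1 and mul-1 no pair exceeded 0.22. The median of the 21 pairs was 0.21, with 17 above 0, beside a median of 0.08 between an effector and any other gene tested. The same deviations of C17H12.8 had an r of -0.53 with the score of the 7 oocyte markers and of 0.45 with that of the 4 neuronal markers, and for dod-24 these values were -0.51 and 0.41. For K08D8.5 they were -0.36 and 0.27, for irg-4 -0.43 and 0.48, and for irg-5 -0.43 and 0.41. For sysm-1 they were -0.11 and -0.09, and for mul-1 0.01 and 0.08. With the score of the 8 intestinal markers the values were 0.44 for irg-4, 0.40 for irg-5, 0.31 for C17H12.8 and 0.27 for dod-24. They were 0.24 for K08D8.5 and 0.15 for mul-1, but -0.29 for sysm-1, opposite in sign to the others. The sperm score had an r from 0.01 for sysm-1 to 0.51 for irg-4. The yolk score had an r below 0 with all effectors but mul-1 (0.15), down to -0.40 for C17H12.8. The part of these tissues and cell types in the shared deviations was not tested.

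**Figure D4:**
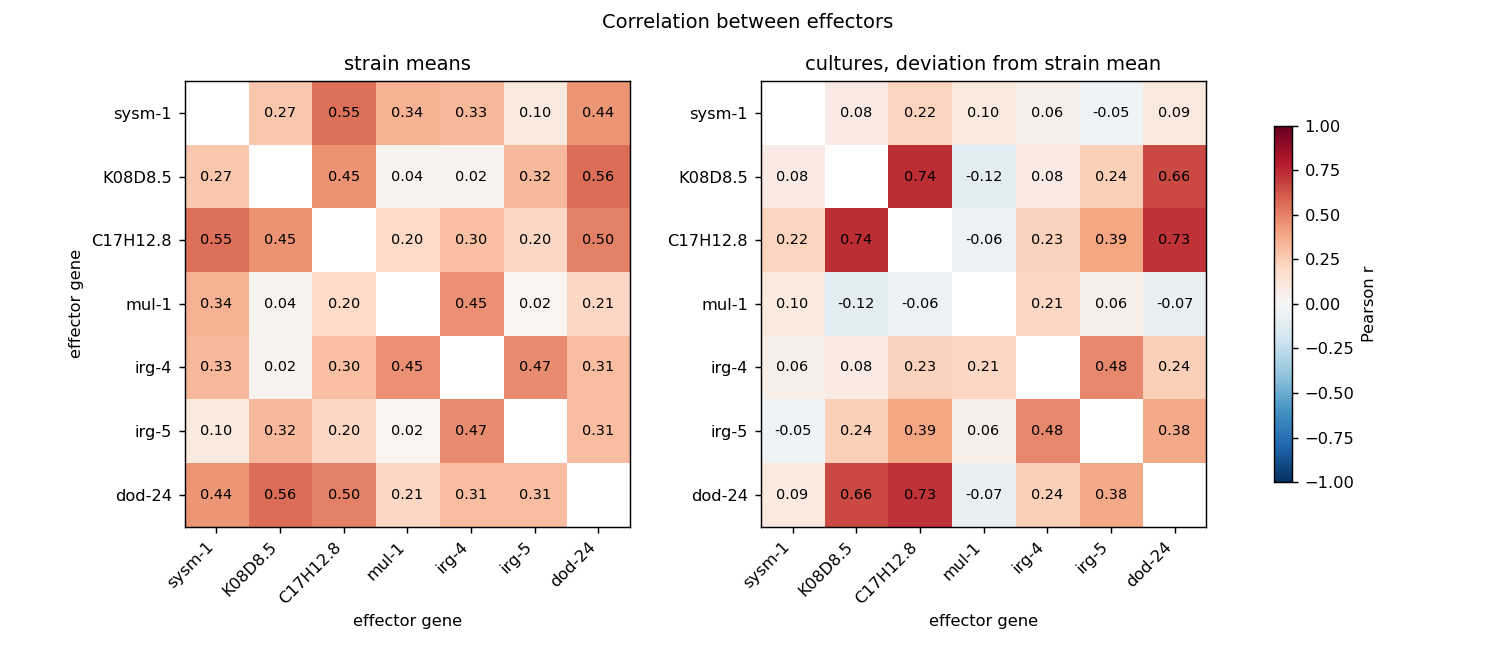
Pearson's r between each pair of effectors over the strain means (left) and over the deviations of 559 cultures from their strain means (right), with red for values above 0 and blue for values below 0. K08D8.5, C17H12.8 and dod-24 form the block with 0.66 to 0.74 on the right, and their values on the left run from 0.45 to 0.56.

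Outside the 7 genes, the closest pattern to K08D8.5 was that of irg-6 (C32H11.1), a further infection response gene whose span on chromosome IV lies 592 bases from that of K08D8.5. Over the strains r was 0.92 (rho 0.87), and H2 of irg-6 was 0.93. In the median strain irg-6 was at only 0.110 TPM, and 115 strains had a mean under 0.5 TPM. Its highest mean, 3.86 TPM, was in NIC513, which also led K08D8.5. The next 4 genes in likeness to K08D8.5 were K08D8.4, K08D8.6, clec-186 and K08D8.7, with r between 0.53 and 0.69, and all lie within 41566 bases of it. Reads of near-identical genes can be divided between them by the pseudoalignment, and whether irg-6 and K08D8.5 share sequence was not examined here.

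Leaving the effectors themselves aside, the genes most like dod-24 came from the same stretch of chromosome IV and from chromosome II. They were K08D8.4 (r 0.62), clec-3 (0.57), dod-22 (0.55), K08D8.6 (0.52) and C32H11.4 (0.51). For C17H12.8 they were dod-22 (0.76), lys-2 (0.76), which encodes a lysozyme, lec-10 (0.74), a galectin gene, C17H12.6 (0.71), its neighbour at 489 bases, and C49C3.9 (0.71). For sysm-1 they were dod-22 (0.56), K11H12.4 (0.53), C32H11.4 (0.52), lys-2 (0.52) and F55G11.8 (0.52). Thus 3 of the effectors had dod-22 among the 5 genes most like them. The genes most like irg-4 were K07H8.5 (0.62), dhs-21 (0.60), npr-8 (0.59), R09E10.4 (0.59) and gas-1 (0.59), from chromosomes IV, V and X. Those most like mul-1 were gpd-2, gpd-3, F46H5.3, ivns-1 and B0395.3, all on the X chromosome, with r between 0.57 and 0.58.

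For irg-5 the likeness rested on few strains. The first gene, pgp-7, had an r of 0.65 but a rho of 0.06, and the third, col-87, had an r of 0.56 and a rho of 0.06. F53F4.8, the second gene with an r of 0.64 and a rho of 0.28, lies 119286 bases from irg-5 on chromosome V. The median of its strain means was 0.0868 TPM, and it was at 6.81 TPM in JU2526 and 6.79 TPM in NIC258. In all 9 strains that led irg-5, F53F4.8 had a mean of at least 1.15 TPM and ranked between 2 and 14 among the strains. F53F4.8 was picked by its r with irg-5, which rests on these strains, so its ranks there add no separate support. The 7 tested genes named for the same clone as irg-5 had an r with it between -0.27 for F35E12.4 and 0.44 for F35E12.10, with a median of 0.10, the value of F35E12.9.

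The other genes of the pathway came from lists taken from general knowledge of it. All 15 genes of the cascade and its transcription factors were tested and all differed among strains, with a median H2 of 0.52. That is below the 0.77 of the effectors and near the 0.56 of all genes. Their SD among strain means had a median of 0.26, against 0.91 for the effectors. The kinase gene pmk-1 had an H2 of 0.53, with 15 strains higher and 10 lower than the mean of all strains, and atf-7 had an H2 of 0.30. Across strains pmk-1 had an r of 0.63 with C17H12.8, 0.33 with sysm-1, 0.31 with irg-4, 0.27 with K08D8.5, 0.23 with irg-5, 0.22 with dod-24 and 0.11 with mul-1. The median over all genes was 0.19 for both C17H12.8 and mul-1, and 5% of all genes had an r above 0.53 with C17H12.8. Over all 15 genes the median r with the effectors was 0.24, beside 0.13 for all genes tested. For sek-1, which encodes the kinase above PMK-1, the highest values were 0.51 with irg-4 and 0.50 with mul-1, where 5% of all genes were above 0.51 and 0.49. For vhp-1, which encodes a phosphatase of MAP kinases, the highest was 0.68 with C17H12.8.

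The 15 other intestinal effectors were variable to a like degree. Their median H2 was 0.78 and their median SD among strain means 0.79, and all 15 were called in the F-test. The highest H2 among them was that of irg-6 (0.93), followed by dod-19 (0.86). A list of 4 defence genes that do not need PMK-1 (irg-1, irg-2, irg-3 and zip-2) had a median H2 of 0.58. Of 13 antimicrobial peptide genes of the epidermis, 10 passed the filter on low counts, and their median H2 was 0.64. These medians are descriptions of lists of unequal size and level, and no list was tested against another.

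The strains CB4856 and N2, which are often crossed with each other, were compared next. Of the 7 effectors, 4 differed (limma, adjusted over 16260 genes), as did 17.7% of all genes tested. Cultures of the 2 strains did not overlap for these 4 genes, as for 30% of all genes. K08D8.5 was at 14.99, 12.2 and 8.21 TPM in CB4856, against 4.49, 2.74 and 2.72 TPM in N2. Its difference was 1.68 ± 0.29 (SE) on the log2 scale with an adjusted p of 5.1e-07 from limma. The neighbouring effector dod-24 was at 66.7, 65.7 and 43.0 TPM in CB4856, against 21.1, 11.2 and 10.5 TPM in N2, a difference of 2.04 ± 0.38 (adjusted p = 4.7e-06 from limma). Both genes of this neighbourhood were thus higher in CB4856.

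The direction was the opposite for irg-4, with 2.37, 1.25 and 1.25 TPM in CB4856, against 10.98, 10.7 and 10.5 TPM in N2. This difference of -2.45 ± 0.34 had an adjusted p of 1.7e-10 from limma. For mul-1 the 3 CB4856 cultures had no count, against 0.457, 0.373 and 0.291 TPM in N2, where 20 counts were summed over 3 cultures. With 3 counts over the group as the floor, mul-1 was at least 7.30-fold lower in CB4856. In limma the adjusted p for mul-1 was 0.043. The call was lost with a pseudocount of 1 (limma, adjusted p = 0.11), with all cultures of the series (limma, adjusted p = 0.069) and when any replicate was left out (limma, adjusted p between 0.095 and 0.27). The edgeR fit gave an adjusted p of 3.0e-05.

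The remaining 3 effectors did not pass the test between these strains. Values were 2.81, 2.58 and 2.27 TPM in CB4856 and 3.08, 2.31 and 0.752 TPM in N2 for sysm-1, and 0.959, 0.774 and 0.536 TPM in CB4856 and 1.29, 1.13 and 0.957 TPM in N2 for irg-5. C17H12.8 was at 17.3, 11.3 and 11.09 TPM in CB4856 and at 19.3, 16.9 and 16.2 TPM in N2. Within the later year alone, with 1 culture of CB4856 and 2 of N2, the differences were 1.95 for K08D8.5, 2.06 for dod-24 and -2.70 for irg-4, and within the earlier year, with 2 cultures of CB4856 and 1 of N2, they were 1.70, 2.29 and -2.30. With an arm of 1 culture these are values without a test. The strains also differed in sperm markers. All 10 were lower in CB4856, with a summed level of 42.9 to 239.9 TPM in CB4856 and 1269 to 2309 TPM in N2 and none at 0. The part of sperm content in the differences of the effectors was not tested. Summed intestinal markers ran from 1512 to 2080 TPM in CB4856 and from 2047 to 2614 TPM in N2, with 1 of 8 called lower. Reads from regions where a strain differs strongly from the reference can be lost in the pseudoalignment, and whether a value of 0 or near 0 comes from such a region was not tested.

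**Figure D5:**
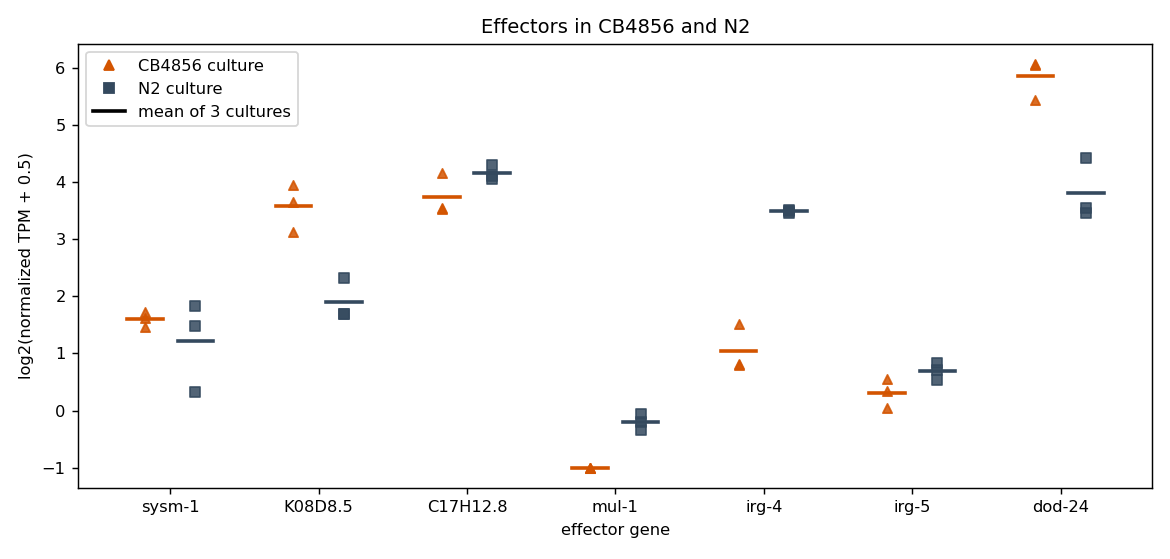
Log2(normalized TPM + 0.5) of each effector in the 3 cultures of CB4856 (triangles, left of each pair) and of N2 (squares, right), with bars for the means. K08D8.5 and dod-24 are higher in CB4856 by 1.68 and 2.04, irg-4 is lower by a difference of -2.45, and mul-1 of CB4856 lies at -1, the value of a TPM of 0.

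The 122 strains with cultures of both years allowed a comparison of the later year with the earlier year within strains (limma with strain in the fit). The year is that of the sequencing pool, and 23 kept cultures of the later year come from 6 pools whose labels join 2 pool numbers. Of the 7 effectors, 6 passed the test, 2 higher and 4 lower in the later year, where 15.3% of all genes were higher and 33.8% lower. The differences were small beside those among strains. They were 0.15 for sysm-1 and 0.11 for mul-1, and -0.16 for dod-24, -0.15 for C17H12.8, -0.12 for K08D8.5 and -0.11 for irg-5, beside a median of -0.04 over all genes. The value for irg-4 was -0.05 ± 0.05 (SE, adjusted p = 0.42 in limma). K08D8.5 was higher in the later year in 42 of 122 strains and sysm-1 in 72 of 122. Without the cultures of the joined pools 4 effectors passed, all lower, and both higher calls were lost (0.08 for sysm-1 and 0.06 for mul-1, limma adjusted p = 0.30 and 0.19). The calls were unstable in other ways too, with 1, 6 and 2 effectors passing without replicate 1, 2 and 3, and 3 passing with all cultures of the series. Replicate numbers only follow the order of the samples, and without replicate 1, 2 and 3 there were 107, 122 and 31 strains with cultures of both years.

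Strain levels were nevertheless repeated between years. Over the 122 strains, the r between the mean of the later year and that of the earlier year was 0.93 for irg-5, 0.90 for K08D8.5, 0.90 for irg-4, 0.84 for dod-24, 0.78 for C17H12.8, 0.64 for sysm-1 and 0.56 for mul-1. The median of all genes tested was 0.64. The rank correlation of irg-5 was lower than its r, at 0.76.

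The effectors also varied with the scores of other tissues, each the mean log2 level of a list of markers. Over the strains the score of the 7 oocyte markers had an r below 0 with all 7 effectors, from -0.53 for C17H12.8 to -0.24 for K08D8.5. The score of the 4 neuronal markers had an r above 0 with all 7, from 0.22 for irg-5 to 0.50 for C17H12.8, as did those of the 8 intestinal markers, from 0.14 for sysm-1 to 0.46 for irg-4, of the 4 epidermal markers, from 0.23 for sysm-1 to 0.55 for C17H12.8, and of the 5 muscle markers, from 0.12 for K08D8.5 to 0.48 for irg-4. The 6 yolk markers had an r below 0 with all effectors but mul-1 (0.10), down to -0.46 for C17H12.8. The 10 sperm markers had an r of 0.48 with mul-1 and 0.43 with irg-4, but -0.04 with K08D8.5. The part of tissue content or stage in the strain differences was tested only by regressing out the 4 stage scores, after which 215 pairs of an effector and a strain were higher and 239 lower than the mean of all strains, or 14.8% and 16.5%. Over all genes tested 6.41% were then higher and 5.52% lower.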

How the data were processed

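Raw reads of each culture were trimmed by the authors with fastp 0.20.0 and pseudoaligned with kallisto 0.44.0 to a transcriptome carrying the single-nucleotide variants of that strain. The deposited values are estimated counts and TPM per transcript, not normalized between samples. TPM of every culture sums to 1000000. Rows were assigned to genes by identifier, and estimated counts and TPM were summed over all transcripts of a gene.

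Genes tested were the 16260 protein-coding genes and pseudogenes with a transcript at 5 or more normalized counts in all cultures of at least 10 strains. Strain JU2800, with 1 culture, entered no comparison. Cultures were selected by the study's distance rule, rerun with DESeq2 1.42.0. Regions that are hyper-divergent in a strain were kept here, whereas the study removed them, and the selected set is not identical to that of the study. TPM was divided by factors computed as in sleuth, between 0.422 and 1.32.

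Differences among strains were tested with edgeR 4.0.16 on estimated counts rounded to whole numbers, with a dispersion trend from 400 genes drawn with a fixed seed. Other tests used limma 3.58.1 in R 4.3.3 on log2(normalized TPM + 0.5). Benjamini-Hochberg adjustment at 0.05 was over all genes, or over all genes and strains. H2 is a restricted maximum likelihood estimate with strain as random effect, and its interval comes from the F ratio. No pair of cultures of a strain held identical counts. Depth sets counting error, which is a part of the spread among cultures.

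Procedures were tested on simulated data. Of genes with a simulated SD among strains of 0.3, 92.0% were called in the F-test, and 0.0436% of unchanged genes were. A simulated difference of 0.15 between years was called in 72.0% of the genes that had it. Few genes had a simulated year difference, whereas in the data 15.3% of genes were higher and 33.8% lower in the later year. The residual SD of the effectors was 0.36 to 0.56, beside 0.27 for the median gene. The rate therefore need not hold for the effectors.

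Genes named are the 7 effectors, the 5 other genes with the highest r to each, and genes of fixed lists. F35E12.4, F35E12.9 and F35E12.10 come from the list of genes sharing a clone with an effector, of which 50 of 76 were tested. Strains named are the 3 highest and 3 lowest of each effector, CB4856 and N2, and others chosen after their values were seen. The members and lists were chosen with earlier results of these data known. Alternatives were other normalization, tests, pseudocounts and filters, the pool or stage scores regressed out, all cultures of the series, and leaving out replicates. Sequences of the genes are not analysed here.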

Additional observations from a re-analysis of the deposited data

Results flagged for a closer look

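One culture, of strain JU2800, entered no comparison because it has no replicate, and it held counts of all 7 effectors above the 3 that a count of 0 allows. Its raw TPM, not divided by a factor, was 4.95 for sysm-1, 9.13 for K08D8.5, 9.09 for C17H12.8, 1.00 for mul-1, 4.25 for irg-4, 1.06 for irg-5 and 10.5 for dod-24, at a depth of 30784142 estimated counts. The values have no replicate check.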

How the results depend on the processing

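Of the values that answer a comparison, 108 recomputed under an alternative were labelled kept, and 9 moved. A count was kept within a set fold of the main count, so effectors could gain or lose calls under that label. A median H2 was kept inside the interquartile range of the genes, and a median r within an SD of the pairs. Among the values of single effectors 270 were kept, 23 moved, 20 lost their call and 5 changed sign. With the stage scores regressed out, the median H2 of all genes tested was 0.38 in place of 0.56, and 401391 in place of 817232 pairs of a gene and a strain were called. With all cultures of the series, 3567 in place of 7972 genes and 3 in place of 6 effectors differed between years, and the difference of irg-4, which passed in neither fit, was 0.086. Leaving out a replicate of the strains with 3 cultures gave 1440 to 6412 genes and 1 to 6 effectors between years, with a range of -0.073 to 0.046 for irg-4 and of -0.0096 to 0.17 for sysm-1. In edgeR, fitted on the 122 strains with cultures of both years, 7199 genes and 5 effectors differed between years. Between CB4856 and N2 1731 to 2500 genes differed when a replicate was left out, in place of 2885, and the difference of sysm-1 lay between -0.064 and 0.78 without passing the test. Without replicate 3 only 31 of these 122 strains had cultures of both years. The cause of the other shifts was not tested.

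A filter at a mean of 1 TPM left out mul-1, so no value of it exists under that filter. The alternatives within years and without the joined pools (8458 genes and 4 effectors between years) were chosen after seeing the data. Low counts limit sysm-1 and mul-1 most, at medians of 25 and 9 counts per culture. No paired analysis was possible because the labels carry no replicate numbers that pair cultures of different strains. Years were compared with strain in the fit, and the pool was regressed out as an alternative.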
